A study of Mus musculus with 6 samples.

Results

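Tuft cell markers were examined as a list of 8 genes, Dclk1, Trpm5, Pou2f3, Il25, Avil, Alox5, Ptgs1 and Sh2d6, each of which was found in the table of normalized counts by its Ensembl identifier among 55416 genes in all. The table came from organoids grown from duodenal and jejunal crypts of 3 C57BL/6 mice labelled as wild type. From each mouse, 1 culture was treated with 50 μg/ml low-density lipoprotein (LDL) and 1 with PBS for 5 days, which gave 3 LDL-treated and 3 PBS-treated samples, and the labels name no other agent or allele. The replicate number stands for the mouse, because the LDL and PBS samples of a number carry the same animal identifier. The identifier of mouse 3 begins with other letters than those of mice 1 and 2, while all samples are labelled as wild type. Results of limma without mouse 3 are therefore also given for Pou2f3, Pou2af2, Pou2af3, Avil and the counts of called genes in the other lists.

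Tuft cells are rare chemosensory cells of the intestinal epithelium, marked by a tuft of stiff microvilli. The transcription factor POU2F3 is required for their formation, and they detect luminal metabolites through a taste-like cascade that ends in the cation channel TRPM5. They release IL-25, which acts on innate lymphoid cells, and make eicosanoids, and the type 2 cytokines that follow drive the epithelium to form more tuft cells.

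Library depth was 22061545 to 31073360 reads on genes. The LDL-treated library of mouse 1 held reads on 35781 genes and that of mouse 3 on 32751, against 29285 to 30018 in the PBS-treated libraries and 29870 in the LDL-treated library of mouse 2. Of the 8 markers, 7 had a mean normalized count of at least 10 and were tested, and Il25 did not reach it. None of the 7 was called upregulated or downregulated by limma without a term for the mouse, which called 1.27% of the 18459 genes tested (Benjamini-Hochberg adjusted p below 0.05 and over 1.5-fold), 0.878% upregulated and 0.395% downregulated. Before adjustment, 1 of the 7 (14.3%), Pou2f3, had a p-value under 0.05, against 19.7% of all genes tested. With the mouse as a block, which called 9.14% of all genes, 3.46% downregulated and 5.68% upregulated, Pou2f3 was downregulated and no marker was upregulated. On reads recovered from the normalized counts, edgeR with the block also called Pou2f3 (9.53% of genes called, 3.19% downregulated and 6.34% upregulated), and DESeq2 with the block called Avil upregulated (7.29% of genes called, 2.65% downregulated and 4.64% upregulated). Without the block neither tool called a marker, where edgeR called 1.39% of genes (0.379% downregulated and 1.01% upregulated) and DESeq2 5.98% (1.81% and 4.17%). In bulk RNA, fewer cells of a type and less RNA per cell cannot be told apart.

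All markers were low. On the RPKM scale (reads per kilobase of exon, scaled to all reads on genes of a library), the levels in PBS-treated organoids were 1.19 ± 0.277 (SD, n = 3) for Avil and 0.591 ± 0.0896 (SD, n = 3) for Pou2f3. Trpm5 and Sh2d6 followed at 0.392 ± 0.0851 and 0.286 ± 0.0324 (SD, n = 3), and Alox5, Dclk1 and Ptgs1 lay at 0.182 ± 0.0370, 0.130 ± 0.0350 and 0.0838 ± 0.0324 (SD, n = 3). Il25 had a mean of 0.0101 from its 1 read. The values of Avil, Pou2f3 and Trpm5 did not overlap in this order, and neither did those of Sh2d6 and Alox5. Trpm5 overlapped Sh2d6, Alox5 overlapped Dclk1, and Dclk1 overlapped Ptgs1, so these pairs were not separated beyond the spread between mice. The level of Dclk1 depends on an annotated exon length of 21795 bases summed over its isoforms. On the same per-length scale, the enteroendocrine gene Chga, which encodes a granule protein of hormone-secreting cells, stood at 6.17 ± 1.45 (SD, n = 3) with PBS. The plot of levels per length shows the markers beside the partner genes of POU2F3 and enteroendocrine genes.

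**Figure D1:**
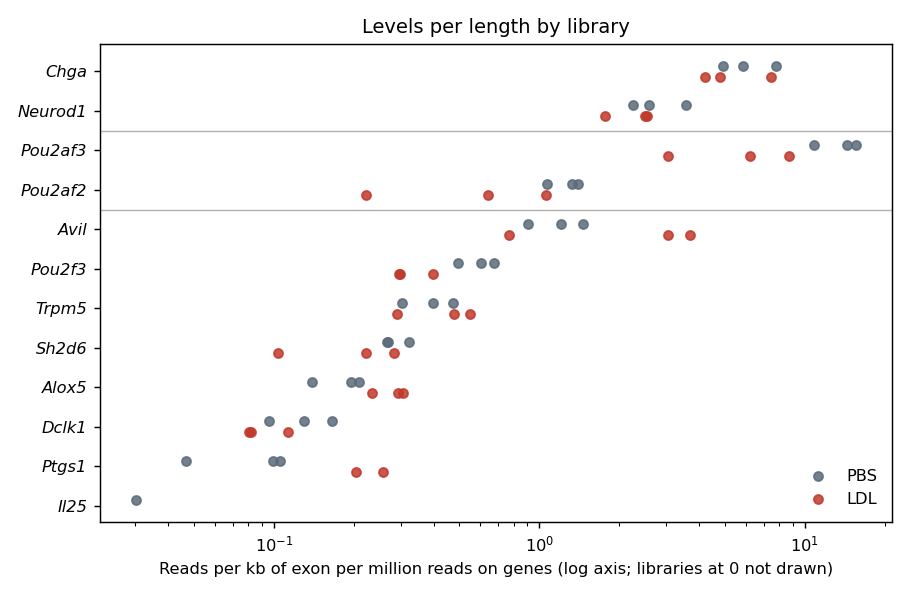
Level in RPKM (x, log axis) for the 8 markers, 2 genes of POU2F3 coactivators and 2 enteroendocrine genes (y), with 1 point per library, dark grey for PBS and red for LDL (n = 3 each); libraries at 0 are not drawn. Pou2f3 with LDL lies below all its PBS values, and Il25 has a point in 1 library.

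The tuft cell label was checked against further genes of that cell. Defining genes were at or near 0 in several cases. Gfi1b, a transcription factor of mature tuft cells, had 0 to 4 reads per library, Gnat3, the taste G protein, 0 to 2, and Sucnr1, the succinate receptor, 0 or 1. Chat, the enzyme of acetylcholine synthesis, had 1 to 6 reads, Gng13, a G protein gamma subunit, 2 to 8, and Alox5ap, the 5-lipoxygenase activating protein, 0 to 6. Other tuft cell genes were well covered, such as Hpgds, the prostaglandin D synthase, with 129 to 203 reads, and Il17rb, the IL-25 receptor, with 79 to 136. Of 23 markers of leukocytes, which also express Alox5 and Ptgs1, 14 did not reach the mean of 10, 8 had at most 3 reads in each library, Cd3e, Cd79a and Cpa3 had at most 6 reads in any library, and Csf1r had 14 to 37. The highest was Cd68, a lysosomal protein gene of macrophages, with 103 to 183 reads and 3.82 ± 0.877 RPKM (SD, n = 3) with PBS, above all 8 tuft cell markers, and Mcpt2 had up to 56 reads and Ms4a1, a B cell gene, up to 22. The summed normalized count of the 23 was 223 to 390 with LDL and 214 to 266 with PBS. Of the 9 that were tested, 8 had a positive log2 fold change and 1 a negative one. None was called without the block and 1 was upregulated with it, and 2 were higher without overlap, against 11.9% of all genes tested. For 14 stromal markers, of which Col1a1 had 2 to 8 reads Pdgfra 0 to 5, Acta2 17 to 50 and the intermediate filament gene Vim 59 to 172, the sum was 133 to 221 with LDL and 217 to 253 with PBS. Vim stood at 0.955 ± 0.188 RPKM (SD, n = 3) with PBS, above Pou2f3. Of the 5 stromal markers tested, none was called, and 3 (Vim, Pdgfrb and Pecam1) were lower with LDL in each mouse without overlap between groups. Of all genes tested, 12.3% were lower without overlap. The part of leukocytes and stromal cells in the marker values was not tested.

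The lineage factor Pou2f3 was lower with LDL in each mouse. It (ENSMUSG00000032015) lies on chromosome 9 of GRCm39 from 43035228 to 43121666 on the minus strand. Its normalized counts in mice 1, 2 and 3 were 28.1, 24.6 and 30.9 with LDL and 48.0, 43.5 and 54.5 with PBS, from 23 to 67 reads. The highest LDL value was under the lowest PBS value, as for 12.3% of all genes tested. The LDL value was 0.585, 0.565 and 0.567 times the PBS value in mice 1, 2 and 3. The log2 fold change was -0.78 ± 0.23 (SE; limma, adjusted p = 0.122 without the block and 0.0470 with it). The exact two-sided permutation test on the normalized counts gave p = 0.1, the smallest value that 3 samples against 3 allow. With the block, edgeR on recovered reads called the gene (adjusted p = 0.0433) and DESeq2 did not (adjusted p = 0.335), and with the block limma did not call it without mouse 1 (adjusted p = 0.177) or mouse 3 (adjusted p = 0.289), where the log2 fold changes were -0.80 and -0.78.

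The genes of POU2F3's coactivators, Pou2af2 and Pou2af3, were in a list of 41 other tuft cell genes, and they were lower with LDL in each mouse too. Pou2af3 had normalized counts of 120, 302 and 202 with LDL and 359, 529 and 529 with PBS in mice 1, 2 and 3. The groups did not overlap, and the log2 fold change of -1.26 was called with the block (limma, adjusted p = 0.101 without it and 0.00237 with it). Pou2af2 had 9.76, 40.9 and 23.4 with LDL and 39.8, 54.7 and 52.9 with PBS. These groups overlapped, because the LDL value of mouse 2 exceeded the PBS value of mouse 1, and the log2 fold change of -1.16 was also called with the block (limma, adjusted p = 0.230 without it and 0.0457 with it). For Pou2af2 neither edgeR (adjusted p = 0.0516) nor DESeq2 (adjusted p = 0.142) with the block passed. Without mouse 3, limma with the block called neither gene. Pou2af2 and Pou2af3 had 1.27 ± 0.174 and 13.6 ± 2.52 (SD, n = 3) RPKM with PBS, both above the level of Pou2f3. Spib, an ETS factor of tuft and M cells, had a log2 fold change of -0.07 (limma, adjusted p = 0.946), and Gfi1b, Hmx2 and Hmx3 were too low to test.

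The DNA motif of POU2 factors, the octamer ATGCAAAT or ATTTGCAT on the other strand, was searched in promoters of RefSeq (GRCm38.p6, 250 bases before to 50 after each start). It was in 1.74% of 32851 promoters. Promoters were given for 6 of the 8 markers, without Pou2f3 and Il25, and none of their 7 windows held these letters. Only exact matches were counted, so near matches, such as atgcaaac in the Avil window below, were not. For the other tuft cell genes, 39 promoters of 32 genes were given, without Pou2af2 and Pou2af3. Of these promoters, 4 held it, those of Sucnr1, Hpgds, Il4ra and Kctd12. These genes had no common direction: the LDL value was 1.03 to 1.55 times the PBS value for Il4ra, 0.760 to 1.32 times for Hpgds and 0.547 to 0.800 times for Kctd12, and Sucnr1 had at most 1 read per library. The 250 bases before the start are shown for Avil, the marker with the most reads, and for Kctd12, a potassium channel tetramerization domain gene, as an example of a window that holds the octamer. Avil is at chr10:127000459-127000708 on the plus strand and Kctd12 at chr14:102982638-102982887 on the minus strand of GRCm38.p6. Capitals mark the octamer, which in Kctd12 spans bases 160 to 153 before the start.
Avil: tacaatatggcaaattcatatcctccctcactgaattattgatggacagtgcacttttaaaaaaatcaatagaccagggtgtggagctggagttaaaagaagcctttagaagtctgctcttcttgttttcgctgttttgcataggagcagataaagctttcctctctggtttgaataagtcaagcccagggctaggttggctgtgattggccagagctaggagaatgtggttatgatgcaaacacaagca
Kctd12: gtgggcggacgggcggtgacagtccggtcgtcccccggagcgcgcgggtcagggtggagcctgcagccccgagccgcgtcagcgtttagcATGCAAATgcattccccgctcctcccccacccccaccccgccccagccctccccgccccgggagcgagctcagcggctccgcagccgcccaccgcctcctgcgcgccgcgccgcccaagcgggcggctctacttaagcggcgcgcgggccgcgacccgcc

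Trpm5 (ENSMUSG00000009246), the cation channel at the end of the taste cascade, was not called in any fit. Its normalized counts were 89.0, 48.2 and 85.3 with LDL and 75.5, 53.4 and 64.3 with PBS in mice 1, 2 and 3. It was higher with LDL in mice 1 and 3 and lower in mouse 2, the groups overlapped, and the log2 fold change was 0.16 ± 0.28 (SE; limma, adjusted p = 0.802). Exons of Trpm5 on chromosome 7 (142622890 to 142648379, minus strand) share 316 bases with Tssc4 on the other strand. For Tssc4 the log2 fold change was 0.12. Upstream of the channel, 5 of 8 taste signaling genes were tested and none was called with or without the block. Gnb3 and Tas1r3 had mixed directions: their LDL values were 0.869, 1.37 and 1.57 times and 0.713, 0.762 and 1.06 times the PBS values in mice 1, 2 and 3. The other tested genes were lower in each mouse. Plcb2, the phospholipase C of the cascade, had 9.76, 6.37 and 5.02 with LDL and 15.3, 11.2 and 13.8 with PBS, and Rgs13, a regulator of G protein signaling, had 4.88, 9.09 and 6.69 with LDL and 17.4, 14.9 and 10.6 with PBS. Neither gene's groups overlapped, as for 12.3% of all genes tested that were lower with LDL. They had 6 to 17 and 4 to 17 reads and log2 fold changes of -0.88 and -0.96 (limma, adjusted p = 0.237 and 0.203). Itpr2, an inositol trisphosphate receptor that is expressed in many cells, had a log2 fold change of -0.42, under the 1.5-fold threshold, with an adjusted p of 0.0185 from limma with the block.

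Il25 (ENSMUSG00000040770), the cytokine that tuft cells send to innate lymphoid cells, was almost absent. It lies on chromosome 14 from 55170152 to 55173294 on the plus strand, and a single read was counted on it in the PBS-treated library of mouse 3 and none in the other 5 libraries. A count of 0 allows up to 3 reads, which is 0.103 to 0.136 RPM (reads scaled to all reads on genes, without length) in these 5 libraries, so no difference was detectable at this depth. Of its exon bases, 734 (69.0%) are also annotated to Gm62784 on the other strand, and the strand setting of the counting is not stated. Tslp, another epithelial cytokine, had 0 to 4 reads. Receptors for the type 2 cytokines had many reads: Il13ra1 had normalized counts of 1036, 740 and 940 with LDL and 702, 623 and 647 with PBS. These did not overlap, as for 11.9% of all genes tested that were higher with LDL. Its log2 fold change of 0.45 was under 1.5-fold (limma, adjusted p = 0.136 without the block and 0.0179 with it). Il17rb had a log2 fold change of -0.18 (limma, adjusted p = 0.685).

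The eicosanoid enzymes Alox5 (ENSMUSG00000025701, chromosome 6 from 116387032 to 116438139, minus strand) and Ptgs1 (ENSMUSG00000047250, chromosome 2 from 36120438 to 36142287, plus strand) were not called in any fit. Alox5, the 5-lipoxygenase that begins leukotriene synthesis, had normalized counts of 28.1, 32.7 and 29.3 with LDL and 14.3, 23.6 and 20.4 with PBS in mice 1, 2 and 3, from 14 to 36 reads. It was higher with LDL in each mouse and the groups did not overlap, as for 11.9% of all genes tested. The gene was not called without or with the block (log2 fold change 0.63 ± 0.28, SE; limma, adjusted p = 0.266 and 0.154). The exact two-sided permutation test gave p = 0.1, again the smallest value possible. Ptgs1, cyclooxygenase 1, had 29.3, 0 and 19.2 with LDL and 10.2, 4.97 and 9.77 with PBS. In mouse 2 no read lay on it with LDL, which allows up to 3 reads, and 4 with PBS. The log2 fold change of Ptgs1 was -0.08 ± 1.17 (SE; limma, adjusted p = 0.983). Leaving out the LDL library of mouse 2 gave 1.46 (limma, adjusted p = 0.0607). Mcpt2, a mast cell protease gene in the leukocyte list, was also highest in the LDL libraries of mice 1 and 3, with 68.3, 7.28 and 42.6 with LDL and 4.08, 1.24 and 0 with PBS, and was upregulated with the block (limma, adjusted p = 0.0884 without it and 0.00847 with it). The mast cell gene Cpa3 had at most 1 read in any library, and the part of mast cells in the Ptgs1 values was not tested. Of 4 other eicosanoid genes, 3 were tested and none was called. Pla2g4a, the phospholipase that frees arachidonic acid for both enzymes, was higher with LDL in each mouse, at 1060, 869 and 1031 against 779, 383 and 988 (log2 fold change 0.56; limma, adjusted p = 0.369 without the block and 0.0809 with it). Ltc4s, the leukotriene C4 synthase, and Hpgds had log2 fold changes of -0.02 and -0.07 (limma, adjusted p = 0.980 and 0.910).

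Dclk1 (ENSMUSG00000027797, chromosome 3 from 55149618 to 55446493, plus strand), a doublecortin-like kinase and a widely used tuft cell marker, was lower with LDL in each mouse but was not called. It had normalized counts of 72.0, 46.4 and 42.6 with LDL and 89.8, 57.2 and 71.6 with PBS, and the groups overlapped. The log2 fold change was -0.45 ± 0.27 (SE; limma, adjusted p = 0.417). Sh2d6 (ENSMUSG00000052631, chromosome 6 from 72490624 to 72498690, minus strand), an SH2 domain gene of tuft cells, had 11.0, 4.55 and 11.7 with LDL and 11.2, 12.4 and 13.8 with PBS, from 5 to 17 reads. It was lower with LDL in each mouse, although the difference in mouse 1 was from 11.2 to 11.0, and the log2 fold change was -0.51 ± 0.41 (SE; limma, adjusted p = 0.550). Thus 3 of the 7 tested markers were lower in each mouse and 1 was higher in each, against 26.8% and 24.2% of all genes tested (51.1% moved the same way in each mouse).

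Avil (ENSMUSG00000025432) encodes advillin, an actin-bundling protein of the villin family found in the tuft cell's microvilli. On chromosome 10 (126836578 to 126856863, plus strand), it had normalized counts of 304, 67.3 and 305 with LDL and 124, 84.5 and 103 with PBS in mice 1, 2 and 3. The LDL values of mice 1 and 3 were 2.46 and 2.95 times the PBS values, and that of mouse 2 was 0.796 times. The groups overlapped, and the log2 fold change was 0.84 ± 0.54 (SE; limma, adjusted p = 0.446 without the block and 0.129 with it). Without the LDL library of mouse 2, the 1 in which Avil was lower than with PBS, the log2 fold change was 1.56 and the gene was called (limma, adjusted p = 0.00197). In that fit the lists of other cell types also had more calls, 7 higher and 12 lower against 2 and 4. Without mouse 1 or mouse 3 the log2 fold change was 0.61 or 0.48 and not called (limma with the block, adjusted p = 0.394 and 0.610). With all libraries and the block, DESeq2 called it (adjusted p = 0.0445) and edgeR did not (adjusted p = 0.0641). Neither tool was fitted without mouse 3. The LDL libraries of mice 1 and 3 are also those with reads on the most genes, as given above, and the part of that difference in the Avil values was not tested. Exons of Avil share 165 bases with Tsfm on the other strand, and the strand setting of the counting is not stated. Tsfm had 421, 607 and 507 with LDL and 494, 526 and 570 with PBS, and the part of Tsfm in the Avil values was not tested.

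**Figure D2:**
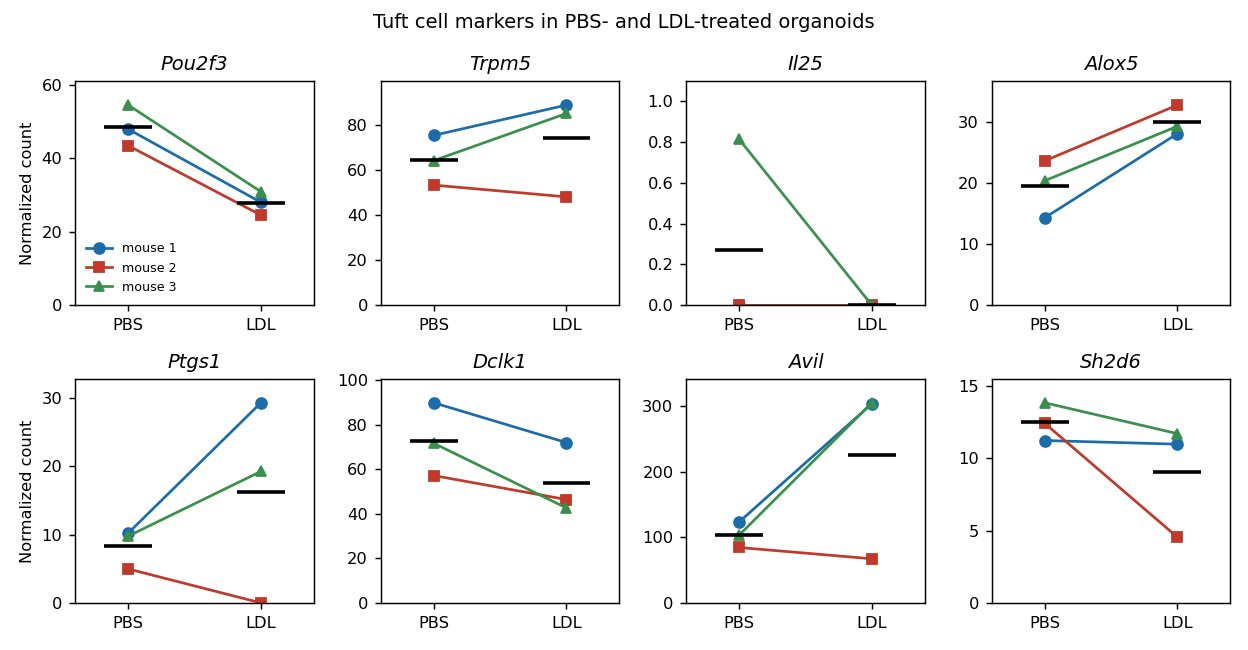
Normalized count (y) of each marker with PBS and LDL (x), with 1 line per mouse (circle mouse 1, square mouse 2, triangle mouse 3) and a black bar for the mean of 3; each panel has its own scale from 0. Pou2f3, Dclk1 and Sh2d6 are lower with LDL in each mouse, Alox5 is higher in each, and Avil and Ptgs1 are higher in mice 1 and 3 and lower in mouse 2.

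Summed over the 8 markers, a sum chosen after the values were seen, the libraries held 19.2, 8.64 and 21.5 RPM with LDL and 15.0, 10.2 and 13.4 with PBS. Avil made up 33.2%, 30.2% and 30.5% of these reads with PBS and 30.1% in the LDL library of mouse 2. In the LDL libraries of mice 1 and 3 it made up 54.1% (95% Wilson interval 49.6 to 58.6) and 58.2% (54.3 to 62.0), where the intervals cover counting error only. Without Avil the sums were 8.80, 6.04 and 9.0 RPM with LDL and 10.01, 7.12 and 9.30 with PBS. The differences within mice 1, 2 and 3 were -1.21, -1.07 and -0.30 RPM, all lower with LDL, and were not tested. The direction of the whole sum in mice 1 and 3 therefore came from Avil.

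**Figure D3:**
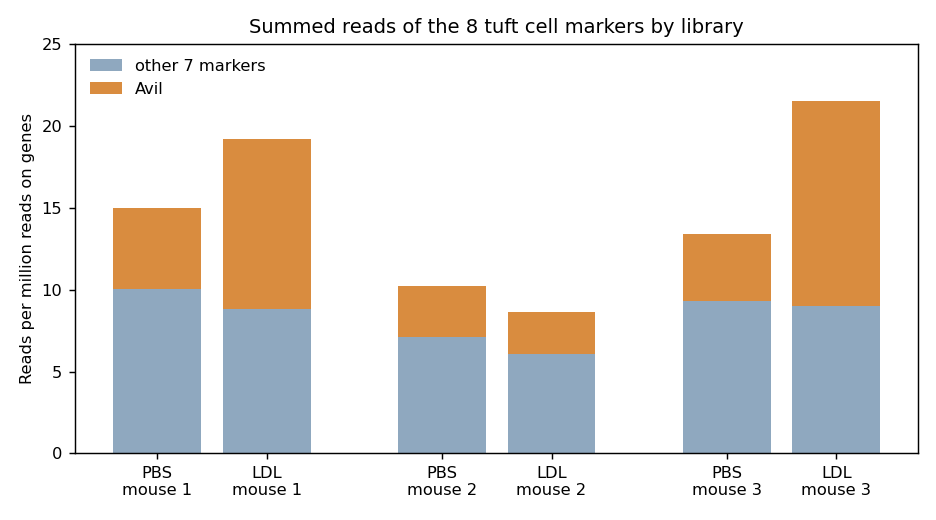
RPM (y) summed over the 8 markers in each library (x, PBS and LDL side by side for each mouse), with Avil in orange and the other 7 in blue-grey. Avil takes 54.1% and 58.2% of the sum in the LDL libraries of mice 1 and 3 and 30.1% to 33.2% in the other 4.

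Of the 41 other tuft cell genes, 27 passed the mean of 10. Their median log2 fold change was -0.07, against -0.08 for the 7 markers and -0.02 for all genes tested. Without the block 1 was upregulated and none downregulated, against 0.878% and 0.395% of all genes tested. With it 1 was upregulated and 2, Pou2af2 and Pou2af3, downregulated, against 5.68% and 3.46%. The upregulated gene was Plcg2, a phospholipase C gamma that is shared with blood cells, with 893, 793 and 806 with LDL and 558, 467 and 532 with PBS (log2 fold change 0.68, adjusted p = 0.0335 from limma). Its LDL value was 1.51 to 1.70 times the PBS value within a mouse. No gene of the list was called upregulated when either library of mouse 1 or 3, or the PBS library of mouse 2, was left out, and 3 were without the LDL library of mouse 2. Of the 27 genes, 9 were lower in each mouse, where 26.8% of all genes were, and 5 were higher in each, where 24.2% were. Groups did not overlap for 7 genes lower with LDL, against 12.3% of all genes, and for 3 higher with LDL, against 11.9%. Among those lower without overlap were Irag2, an endoplasmic reticulum protein, Kctd12 and Atp2a3, a calcium pump, with log2 fold changes of -0.91, -0.52 and -0.37. None of these 3 was called in either fit of limma. For Irag2 the adjusted p with the block was 0.0556 from limma, while edgeR with the block called it, and Kctd12 and Atp2a3 were under 1.5-fold.

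**Figure D4:**
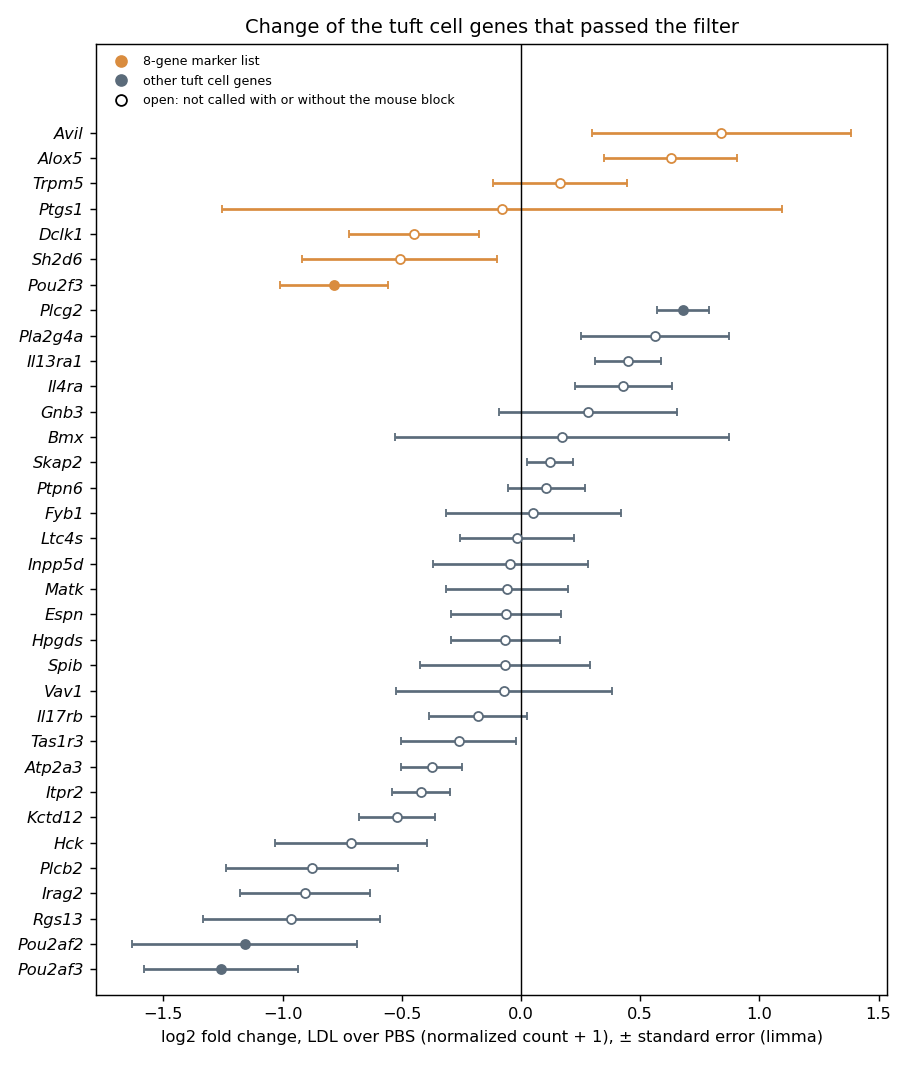
log2 fold change of LDL over PBS with its standard error from limma (x) for the 7 tested markers (orange) and 27 other tuft cell genes (grey), with filled points for genes called with or without the mouse block. Pou2f3, Pou2af2 and Pou2af3 are filled on the left and Plcg2 on the right.

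Lists of other epithelial cells were counted in the same way, without a test of the lists against each other. Of all genes tested, 0.878% were upregulated and 0.395% downregulated without the block, and 5.68% and 3.46% with it. Of 16 tested enteroendocrine genes, none was called without the block and 3 were downregulated with it, with a median log2 fold change of -0.29. Chga and Neurod1, a factor of that lineage, had log2 fold changes of -0.16 and -0.26 and were not called in either fit. Of 10 goblet cell genes, 4 were downregulated and 1 upregulated without the block, and 5 and 1 with it (median -0.60). Of 10 Paneth cell genes, none was called without the block, and 2 were upregulated and 3 downregulated with it (median -0.11). Of 10 enterocyte genes, 1 was upregulated and none downregulated without the block, and 3 and 1 with it (median -0.08). Of 10 stem cell genes, none was called without the block, and 1 was upregulated and 2 downregulated with it (median 0.18).

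By Pearson correlation over the 6 libraries with the mean of the 7 tested markers' centred log2 values, the nearest genes outside all lists were Gm36527, Aebp2, Cyp2e1, Cbfa2t3 and BC085271, with r between 0.980 and 0.991. This is a description, because the 6 libraries come from 3 mice and the 5 genes are the highest of all genes tested. The mean value was lowest in the LDL library of mouse 2, at -0.88, and highest in that of mouse 1, at 0.50. Ptgs1, with no read in the LDL library of mouse 2, had a centred value of -3.13 there, and without Ptgs1 the mean of the other 6 markers was -0.51 in that library.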

How the data were processed

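The authors removed ribosomal RNA, made stranded libraries, demultiplexed reads with bcl2fastq 2.20, aligned them to GRCm39 with STAR, counted them per gene with featureCounts and used DESeq2, per the labels and the study's methods. The signal deposited by the authors is a normalized count (reads over 1 size factor per library) for 55416 genes. Whole reads were recovered for 100% of values (within 0.001) and gave 22061545 to 31073360 reads per library. Genes were named from GENCODE M39, which held 54749 of the identifiers. Levels per length used the union of annotated exons.

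Genes whose mean reached 10 were analysed as log2(normalized count + 1), and LDL (n = 3) and PBS (n = 3) were compared with limma 3.58.1 (eBayes with a trend, two-sided, Benjamini-Hochberg over all genes tested, R 4.3.3). Calls were made for genes with an adjusted p below 0.05 and over 1.5-fold. The mouse was a block in an alternative fit: the samples of a number share an animal identifier, and their deviations from the treatment means correlated across genes with r = 0.48, 0.42 and 0.46. Other alternatives were pseudocounts, filters, scalings, left-out libraries or mice, edgeR 4.0.16 and DESeq2 1.42.0 on recovered reads. Leaving out mouse 1, and leaving out a mouse with the block, were chosen after seeing the data. The fits were also run on simulated counts without differences between mice, which does not show how they perform on these libraries. The markers and lists were chosen with earlier results of these data known. Named were all 8 markers, other tuft cell genes called in either limma fit or fixed by name, defining markers of other cells and the 5 nearest genes. Tslp, Hmx2, Hmx3, Itpr2, Il13ra1, Il4ra, Pla2g4a, Rgs13, Irag2, Kctd12, Atp2a3, Mcpt2, Cd68, Vim and other genes outside this rule were named after their values were seen. A gene-level check of the mice is not reported here.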

Additional observations from a re-analysis of the deposited data

How the results depend on the processing

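The log2 fold changes of Pou2f3, Alox5, Avil, Trpm5, Dclk1 and Sh2d6 kept their direction in all alternatives in which they were tested. They lay between -0.91 and -0.70 for Pou2f3, 0.43 and 0.78 for Alox5, 0.48 and 1.56 for Avil, and 0.0078 and 0.44 for Trpm5. For Dclk1 they lay between -0.68 and -0.29, and for Sh2d6 between -0.77 and -0.13. Ptgs1 turned positive with a pseudocount of 5 (0.30), with edgeR (0.90 without and 0.89 with the replicate block), with DESeq2 (0.94 without and 0.24 with the block) and in 3 of 5 fits leaving out 1 library, which ranged from -0.70 to 1.46; its LDL library of mouse 2 had 0 reads.

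No call was made for Trpm5, Alox5, Dclk1, Sh2d6 or Ptgs1 in any alternative. Of the 8 markers, the replicate block called 1 lower with limma and 1 with edgeR, DESeq2 with the block called 1 higher, and leaving out each library called 0 to 1 higher. For other tuft cell genes (1 higher, 0 lower in the limma fit without the block), the count higher was 0 without mouse 1, without mouse 3 and with the block without mouse 3, and 0 to 3 leaving out each library. The count lower was 2 with the block and with edgeR and the block, 1 with no filter, with DESeq2 with or without the block and with the block without mouse 1, and 0 to 2 leaving out each library.

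For the lists of other cell types (2 higher, 4 lower), the block gave 8 higher and 14 lower, edgeR with the block 9 and 12, DESeq2 6 and 10 and with the block 9 and 10, and no filter 5 and 7. Without mouse 1 there were 1 and 0, without mouse 3 there were 0 and 0, and with the block 8 and 8 without mouse 1 and 4 and 2 without mouse 3. Leaving out each library gave 0 to 7 higher and 0 to 12 lower. The fits without mouse 1 or 3 hold fewer samples, and the cause of the other differences was not tested. With no filter and with DESeq2 the median log2 fold change of all genes was 0.10 to 0.12, over 43039 genes that include those under the mean of 10. In the reported fit it was -0.02, and the cause of this difference was not tested. Depth limits Sh2d6 (5 to 17 reads), Ptgs1 (0 to 24) and Il25 (0 to 1).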
